A study of Rattus norvegicus with 6 samples.

Results

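Hspa5 (ENSRNOG00000018294) and Ddit3 (ENSRNOG00000006789) are the standard transcript readouts of stress in the endoplasmic reticulum (ER), and their levels were followed in cardiac fibroblasts kept on transthyretin fibrils. They are 2 of the 27108 genes in the deposited table, and were picked by Ensembl rat gene ID. The table itself holds no symbols, so the names rest on that pairing of ID and gene. The cells were fibroblasts from the ventricles of neonatal rats, cells that build the extracellular matrix of the heart. UT stands for glass coated with fibronectin alone and TTR for glass coated with fibronectin plus transthyretin fibrils. There were 3 libraries per group, from RNA taken after 48 h on the substrate. All 6 libraries share the glass and the fibronectin, and no strain, transthyretin variant or fibril dose is named in the labels. The labels also do not say whether the replicates are separate cell isolations, and the spread that enters each p-value may therefore be technical.

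Secreted and membrane proteins fold in the ER. When unfolded protein accumulates there, the sensors Atf6, Ern1 (IRE1) and Eif2ak3 (PERK) start the unfolded protein response. Hspa5 encodes BiP, the main chaperone of the ER lumen, which holds the sensors in check at rest and is itself induced, mainly through Atf6 and the Ern1 product Xbp1. Ddit3 encodes CHOP, a transcription factor induced chiefly through Eif2ak3 and Atf4 and linked to cell death under lasting stress. Fibroblasts, which secrete much collagen, depend on ER chaperones even when unstressed. Transthyretin is a carrier protein of the blood that also passes through the ER when it is made. In these cultures it was presented from outside, as fibrils on the glass.

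The promoters of both genes are shown to place the elements through which the stress sensors are known to act. Both were found by symbol among RefSeq promoter sequences on build GRCr8, as the 250 bases before the annotated gene start on the plus strand. Capitals mark exact matches, on either strand, to the motifs searched, and these matches are descriptions of letters and not evidence of binding. The Hspa5 window is chr3:38452766-38453015 and the Ddit3 window is chr7:65001445-65001694.
Hspa5: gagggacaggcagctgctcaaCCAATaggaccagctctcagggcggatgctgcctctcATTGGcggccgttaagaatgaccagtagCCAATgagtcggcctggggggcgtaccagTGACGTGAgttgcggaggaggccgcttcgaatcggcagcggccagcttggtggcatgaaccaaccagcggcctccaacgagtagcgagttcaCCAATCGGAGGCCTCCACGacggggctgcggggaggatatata
Ddit3: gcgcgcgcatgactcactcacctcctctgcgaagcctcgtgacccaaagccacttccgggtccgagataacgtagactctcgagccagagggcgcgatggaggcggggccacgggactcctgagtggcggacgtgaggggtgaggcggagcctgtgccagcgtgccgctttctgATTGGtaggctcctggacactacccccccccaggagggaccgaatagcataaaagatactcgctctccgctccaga

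The Hspa5 window held 1 exact copy of the ER stress response element (CCAAT, 9 bases of any kind, then CCACG), the site of Atf6 and Xbp1 together with the factor NF-Y. It ran from 43 to 25 bases before the gene start and reads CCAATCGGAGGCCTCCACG. Of 33469 RefSeq rat promoter windows of the same length, 22 (0.0657%) held this element on either strand. Hspa5 also held the cyclic AMP element-like octamer TGACGTGA, 135 to 128 bases before the start, which was found in 0.35% of windows. CCAAT boxes, read on the other strand as ATTGG, stood at 4 places in the Hspa5 window, 1 of them inside the ER stress response element. In Ddit3 there was 1, at 76 to 72 bases before the start, and 34% of all windows held at least 1. On the other strand, this CCAAT of Ddit3 is followed, after 9 bases, by GCACG. That is 1 letter off the CCACG of the ER stress response element, and the search did not count it. Hspa5 also holds looser copies of this layout, each more than 1 letter off and likewise not counted. They read CGAAT, 9 bases, then CCAGC, and CCAAC, 9 bases, then CCAAC. Neither gene's window held ATTGG, 1 base of any kind, then CCACG (0.0418% of windows), TGACGTGG (0.52%) or the Atf4-type element TGATGNAAT (0.944%). Only exact matches were sought, so variants of these motifs were not counted in any window. A window this short also leaves out more distant sites.

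The libraries held between 6574199 and 11774729 counts, the deepest being TTR replicate 1. The first principal component of expression, with 39.6% of the variance, did not follow the substrate. It set UT replicate 1 (score -18.5) and TTR replicate 3 (-30.2) low, and UT replicate 3 (23.0) and TTR replicate 1 (25.5) high. Results are therefore also given without such libraries. The defining markers of fibroblasts and of other heart cells were not analysed here, because the reference table used paired 0 of the table's IDs with a symbol. The same holds for the other genes of the unfolded protein response. The lists for both, with 117 symbols including Hspa5 and Ddit3, were not run.

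Neither Hspa5 nor Ddit3 differed between the substrates beyond the spread among libraries, with the libraries taken as unpaired. For each library, however, the one closest in its counts belonged to the other group. Within these pairs Hspa5 was higher on TTR each time, and Ddit3 only for UT replicate 1 with TTR replicate 3. The pairs were seen in the data, not given by the labels, and a paired test by them was not run. Hspa5, the chaperone BiP, averaged 1640 ± 197 on UT and 1747 ± 166 on TTR (SD, n = 3 each), in counts per 1000000 (CPM). Ddit3, the transcription factor CHOP, averaged 43.4 ± 5.18 CPM without fibrils and 42.6 ± 3.34 CPM with them (SD, n = 3 each). CPM here are counts scaled to the library size adjusted by TMM, a factor that sets the bulk of genes level between libraries. They are not scaled to transcript length, so the levels of the 2 genes are not compared with each other.

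Hspa5 was covered deeply in every library. Its counts were 10413, 11791 and 12106 on UT and 21826, 13137 and 10414 on TTR, in order of replicate number. Scaled, these were 1418, 1711 and 1792 CPM on UT and 1881, 1800 and 1561 CPM on TTR. The groups overlapped: TTR replicate 3 lay below UT replicates 2 and 3, while TTR replicates 1 and 2 lay above all UT libraries. UT replicate 1 was the lowest of all 6. The lowest library of each group, UT replicate 1 and TTR replicate 3, was also the one at the low end of the first component, and the part of that component in the result was not tested.

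The log2 difference of Hspa5, TTR minus UT, was 0.09 with an SE of 0.13. The edgeR quasi-likelihood test gave an adjusted p of 0.999 (Benjamini-Hochberg, over 12049 tested genes). This corresponds to 1.07-fold, with a 95% interval from 0.867-fold to 1.31-fold. The exact permutation test on CPM, two-sided, gave p = 0.5 (0.7 adjusted over the 2 genes), where 3 against 3 libraries cannot go below 0.1. The test across all genes called 0.0083% of the genes at an adjusted p under 0.05, a single gene out of the 12049, and it was neither Hspa5 nor Ddit3. The groups did not overlap for 6.85% of tested genes, and for 0 of these 2.

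Ddit3 was measured from far fewer reads, at 275, 323 and 310 counts on UT and 514, 283 and 299 on TTR. The larger count of TTR replicate 1 goes with its depth. In CPM the libraries stood at 37.4, 46.9 and 45.9 on UT and at 44.3, 38.8 and 44.8 on TTR. All 3 TTR libraries lay inside the range of the UT libraries, whose lowest was again replicate 1 and whose highest was replicate 2. The lowest TTR library was replicate 2, not replicate 3 as for Hspa5.

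The log2 difference of Ddit3 was -0.02 with an SE of 0.13, and the same edgeR test gave an adjusted p of 0.999. In fold terms this was 0.983, with a 95% interval from 0.796 to 1.21. The exact permutation p was 0.7, also 0.7 after adjustment over the 2 genes. Its sign turned in 3 of the 6 fits with 1 library left out, to 0.03 without UT replicate 2, 0.02 without UT replicate 3 and 0.04 without TTR replicate 2. It stayed negative in the other fits, at -0.12 without UT replicate 1, -0.05 without TTR replicate 1 and -0.06 without TTR replicate 3.

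**Figure D1:**
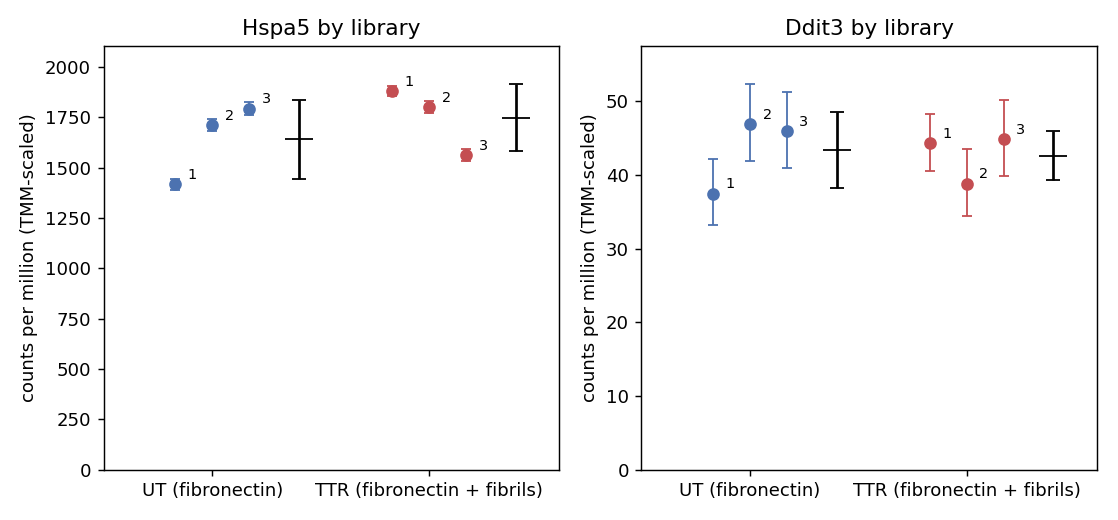
TMM-scaled CPM of Hspa5 (left) and Ddit3 (right) in each library, on axes that start at 0; numbers are replicate numbers, coloured bars are exact 95% Poisson intervals for counting error only, and black marks are group means ± SD (n = 3). The groups overlap for both genes, and UT replicate 1 is the lowest library of all 6 for each (1418 and 37.4 CPM).

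The spread of the 2 genes differed in its make-up. For Hspa5 the libraries varied by 12.0% on UT and 9.52% on TTR (coefficient of variation, SD over mean), against 0.935% and 0.813% from the counting of reads alone. Almost all of its spread was therefore between libraries. For Ddit3 the variation was 11.9% on UT and 7.83% on TTR, against 5.75% and 5.23% from counting. Counting thus took a larger share of the spread of Ddit3 than of Hspa5.

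Against the other genes of the table the difference of Hspa5 was near the middle and that of Ddit3 was small. In the 12049 tested genes, log2 differences had a median size of 0.10 and a median SE of 0.17. A larger log2 difference in size than that of Hspa5 was seen in 53.1% of tested genes, and than that of Ddit3 in 86.4%. Among the 111 tested genes within 2-fold of the mean CPM of Hspa5 (itself included), 38.7% had a larger difference, and their median size was 0.07. Among the 4354 genes within 2-fold of Ddit3, 83.8% had a larger one, with a median size of 0.08. Hspa5 thus sat slightly above the median of genes at its level and Ddit3 well below the median of its own.

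**Figure D2:**
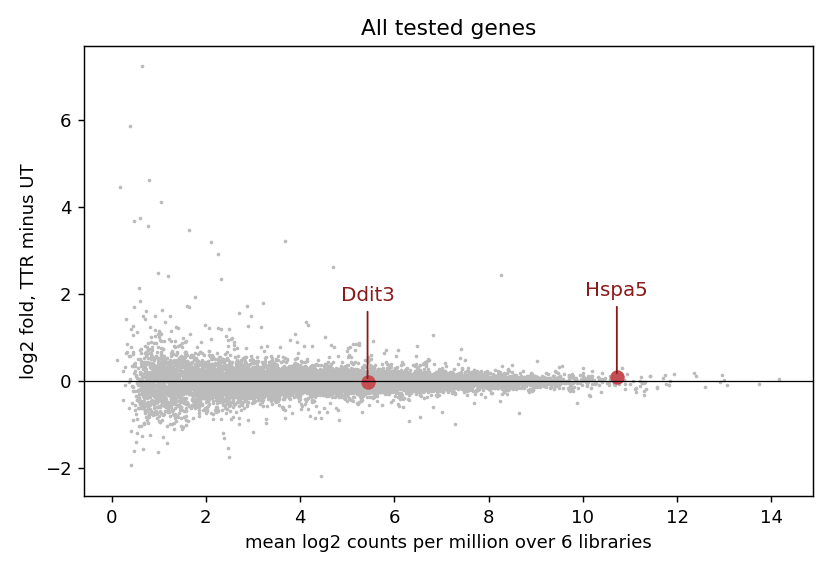
Mean log2 CPM over the 6 libraries against the log2 difference, TTR minus UT, for the 12049 tested genes (grey points), with Hspa5 and Ddit3 in red. Both lie close to the line of no difference, Hspa5 at 0.09 and Ddit3 at -0.02.

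Left-out libraries moved both values only within their intervals. For Hspa5 the log2 difference ranged from 0.00027 without UT replicate 1, its lowest library, to 0.16 without UT replicate 3 or without TTR replicate 3. Without both libraries at the low end of the first component, UT replicate 1 and TTR replicate 3, Hspa5 stood at 0.07 (SE 0.08, 95% interval -0.11 to 0.25) and Ddit3 at -0.16 (SE 0.12, 95% interval -0.43 to 0.12). In edgeR, the adjusted p of both genes was then 0.998 with 2 libraries per group. Over all 17 alternative settings the 95% intervals reached at most from 0.759-fold to 1.53-fold for Hspa5 and from 0.734-fold to 1.47-fold for Ddit3. A 2-fold change in either direction thus lay outside the interval of both genes under each of these settings. These intervals bound the difference between these libraries at 48 h, and an earlier or transient change was not measured.

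**Figure D3:**
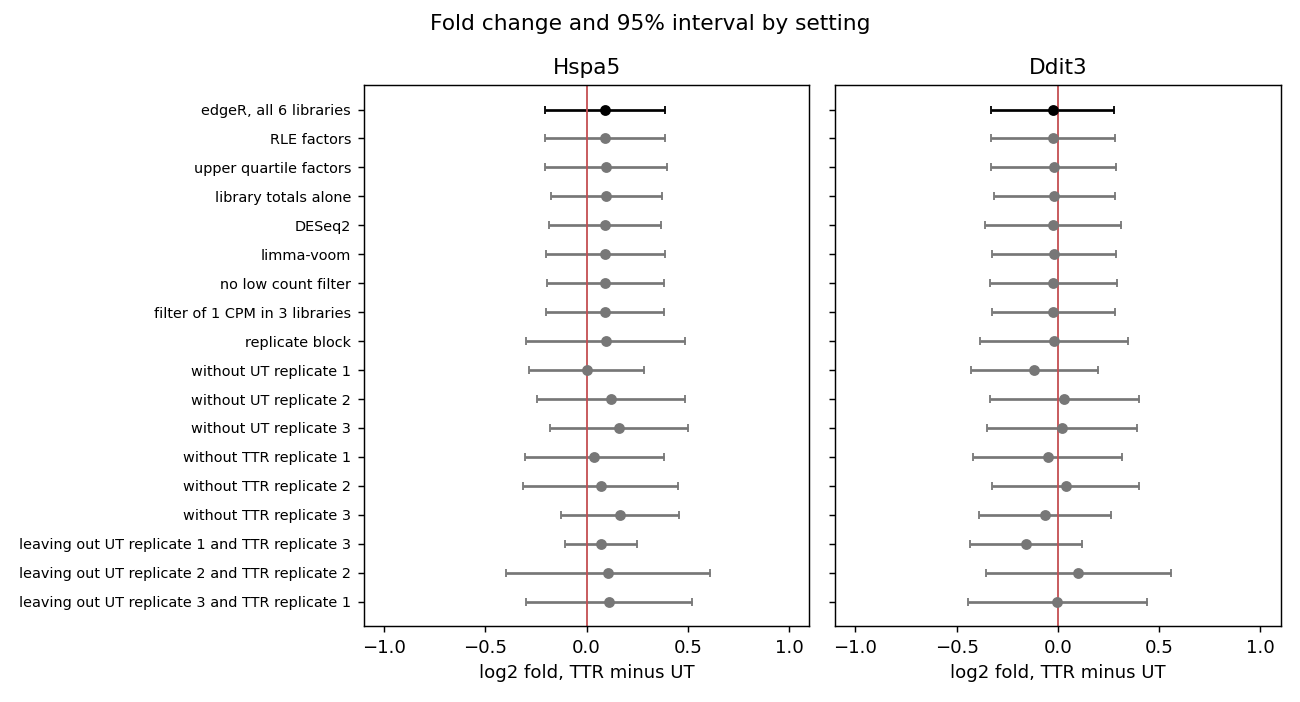
Log2 difference of Hspa5 (left) and Ddit3 (right), TTR minus UT, with 95% intervals, for edgeR on all 6 libraries (black) and for 17 alternative settings (grey). All intervals include 0, and the Ddit3 values fall on both sides of it.

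The ratio of Ddit3 to Hspa5 counts within a library does not depend on how libraries are scaled, and was used to ask whether the 2 genes differed in their response to the substrate. Per 1000 Hspa5 counts there were 26.4, 27.4 and 25.6 Ddit3 counts on UT, and 23.5, 21.5 and 28.7 on TTR. TTR replicates 1 and 2 lay below all UT libraries and TTR replicate 3 above all of them. The mean was 26.5 ± 0.895 on UT and 24.6 ± 3.70 on TTR (SD, n = 3 each). On the log2 scale the difference, TTR minus UT, was -0.12, and the exact permutation test gave p = 0.4. No difference in response was shown, but this test cannot go below 0.1 here and so could not have passed 0.05.

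The size of this difference depended on which TTR library was included. Without TTR replicate 3 the log2 difference was -0.23, the groups did not overlap, and the exact permutation p was 0.1, the smallest that 5 libraries allow. Leaving out this library, which alone lay above the UT libraries, had to part the groups, as the other TTR libraries lay below them. Without TTR replicate 2 the difference was -0.03 (exact permutation p = 0.8). With both libraries numbered 2 left out it was -0.00068. The 3 UT libraries agreed more closely (SD 0.05 on the log2 scale) than counting error alone would give (between 0.08 and 0.09 per UT library). The 3 TTR libraries had an SD of 0.21 against a counting error between 0.06 and 0.09. Whether the spread differed between the groups was not tested.

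**Figure D4:**
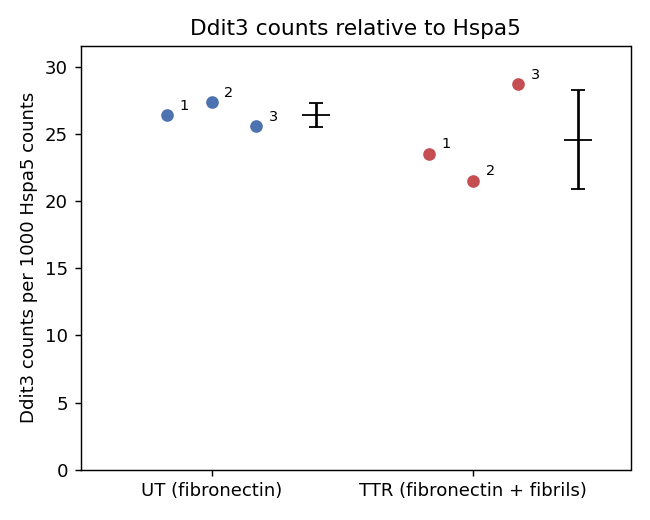
Ddit3 counts per 1000 Hspa5 counts in each library, on an axis that starts at 0 and without correction for transcript length; numbers are replicate numbers and black marks are group means ± SD (n = 3). The UT libraries lie between 25.6 and 27.4, and the TTR libraries lie on both sides of them, from 21.5 to 28.7.

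Across all 6 libraries no close relation of Hspa5 and Ddit3 was shown, and so few libraries cannot establish that there is none. Pearson's r of log2 CPM was 0.45 (exact permutation p = 0.36) and Spearman's rho 0.09 (exact permutation p = 0.92), the only relation between libraries that was tested. Without the 2 libraries farthest from the Hspa5 median, UT replicate 1 and TTR replicate 3, r was -0.32 over 4 libraries. The positive r rested on UT replicate 1: it was -0.27 without that library alone, and between 0.39 and 0.75 without any other single library. Of the 12048 other tested genes, ordered by their correlation with Hspa5, Ddit3 came at place 3525.

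The genes whose profile over the 6 libraries was most like that of each member were listed by ID, as a description with no test. For Hspa5 these were ENSRNOG00000003122 (r = 0.994) and ENSRNOG00000062272 (r = 0.994), and 326 genes had an r over 0.9. ENSRNOG00000003122 averaged 8.34 ± 1.82 CPM without and 9.41 ± 1.41 CPM with fibrils. ENSRNOG00000062272 averaged 4.37 ± 1.12 and 5.10 ± 1.04 CPM (SD, n = 3 each). Both stand at far lower CPM than Hspa5. For Ddit3 the most alike were ENSRNOG00000001061 (r = 0.993) and ENSRNOG00000023020 (r = 0.975), and 43 genes had an r over 0.9. ENSRNOG00000001061 averaged 12.6 ± 2.91 CPM without and 12.3 ± 1.54 CPM with fibrils, and ENSRNOG00000023020 averaged 22.9 ± 2.93 and 21.9 ± 2.21 CPM (SD, n = 3 each). Each r rests on 6 points, drawn from the libraries that also gave the values of Hspa5 and Ddit3. How many genes reach such an r with any other gene was not counted, so 326 and 43 cannot be judged high or low.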

How the data were processed

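The deposited data are raw, unnormalized counts, as whole numbers, for each gene in each of the 6 libraries. STAR, featureCounts, edgeR and build rn6 are named in the submitters' processing notes. Versions, annotation, strand setting and multi-mapping treatment are not given in the sources used. How reads of overlapping genes were assigned is therefore unknown.

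Columns were matched to libraries by their description labels. No 2 libraries agreed within sampling noise (smallest chi-square over degrees of freedom 5.51, UT replicate 3 with TTR replicate 1). UT replicate 2 with TTR replicate 2 (5.69) and UT replicate 1 with TTR replicate 3 (7.41) came next. Pairs within a group stood higher, from 8.78 to 30.5. Genes were kept by filterByExpr (minimum count 10), scaled by TMM and tested with edgeR 4.0.16 in R 4.3.3 (quasi-likelihood F-test, group as the only term, all genes adjusted together, threshold 0.05). Intervals are 95%, and those of counts cover counting error only. The ratio had 0.5 added to each count. Scripts were tested on simulated data. Alternatives used RLE or upper quartile factors, library totals, DESeq2 1.42.0, limma-voom (limma 3.58.1), other low count filters, leaving out each library, and a block for the replicate number. Leaving out a UT and a TTR library together was chosen after seeing the data. The genes and lists were chosen with earlier results of these data known. The named genes are Hspa5, Ddit3 and, for each, the 2 genes of highest correlation in log2 CPM (prior count 2). The planned pathway and marker lists were not analysed here.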

Additional observations from a re-analysis of the deposited data

How the results depend on the processing

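Hspa5 did not pass the threshold under any of 17 alternatives (log2 difference 0.00027 to 0.163, adjusted p from 0.978 to 1.00). Its sign stayed positive, but the value without UT replicate 1 (0.00027, SE 0.122) gave no direction. Ddit3 did not pass either (adjusted p from 0.985 to 1.00). Its sign turned without UT replicate 2, UT replicate 3 or TTR replicate 2, and without both libraries numbered 2. With 1 or 2 libraries left out it ran from -0.156 to 0.102. The cause was not tested. For the replicate block, Hspa5 stood at 0.0938 and Ddit3 at -0.0205, and no call on either changed. The replicate numbers did not consistently pair the libraries: deviations from the group means correlated at -0.375, 0.435 and -0.401. By chi-square the closest libraries, UT first, were replicates 1 and 3, 2 and 2, and 3 and 1. In that order Hspa5 stood at 1418 and 1561, 1711 and 1800, and 1792 and 1881 CPM, higher on TTR in each. Ddit3 was higher on TTR in the first of these pairs only. The pairs were seen in the data, not given by the labels, and a test by them was not run. The ratio of Ddit3 to Hspa5 stayed negative in all 12 of its alternatives (log2 difference -0.234 to -0.00068). Some of these could hardly differ: the block leaves the mean difference unchanged (-0.116). Adding 0 or 2 to each count in place of 0.5 gave -0.116 and -0.117. The count of called genes over the whole table was 1, against 37 with DESeq2, 36 with no low count filter, 3 with the 1 CPM filter, 0 with the block (223 at an unadjusted p under 0.05 in edgeR), 1 to 9 with a single library left out (9 without TTR replicate 1, 2 without UT replicate 2), and 2, 0 and 2 with a UT and a TTR library left out together: replicates 1 and 3, 2 and 2, and 3 and 1. With the pair numbered 2 left out, 124 genes had an unadjusted p under 0.05 in edgeR. Other tools were not run in that case. Counting error was 5.23% to 5.75% for Ddit3 and under 1% for Hspa5, while the SEs of their log2 differences were alike (0.135 and 0.132).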
